A study of Mus musculus with 6 samples.

Results

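The miR-28, miR-151 and miR-708 family was followed in small RNA libraries of mouse iBN cells, a suspension line labelled as granulocyte-macrophage progenitor cells, grown with GM-CSF and carrying an inducible system for PU.1, a transcription factor of myeloid cells (gene Spi1). Its members were chosen by name, as both arms of the miR-28a, miR-151 and miR-708 hairpins. This gave 6 of the 1915 mature microRNA names in the table of read counts, mmu-miR-28a-5p and mmu-miR-28a-3p, mmu-miR-151-5p and mmu-miR-151-3p, and mmu-miR-708-5p and mmu-miR-708-3p, written below without the mouse prefix. Each name had 1 entry there, and all 6 were among the 525 microRNAs that passed the filter on low counts. The uninduced group (0 ng/ml doxycycline) and the group induced for 72 hours with doxycycline at 1000 ng/ml had 3 libraries each. Both groups carried the inducible system and both held trials 1, 2 and 3. This assay does not measure PU.1, and doxycycline-treated cells without the inducible gene were not analysed here. Whether each trial was its own culture is not stated in the labels, so a p-value here reflects only how far these libraries spread, which can be technical.

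A microRNA is cut from a hairpin in a longer transcript, first by Drosha in the nucleus and then by Dicer in the cytoplasm. Either side of the hairpin, the 5p or the 3p arm, can be loaded into an Argonaute protein, where bases 2 to 8 of the arm, the seed, do most of the pairing with target messenger RNAs. Arms with the same seed are therefore expected to share many targets. The hairpins of this family lie in introns of protein-coding genes, so host transcript and microRNA can be made from the same primary RNA. The host RNAs were not measured here. In blood cells miR-28 is known as a microRNA of germinal-centre B cells. miR-151 is known from cancer cell migration together with its host Ptk2, the gene of focal adhesion kinase, and miR-708 from the endoplasmic reticulum stress response, in which it is reported to be induced with its host Tenm4 by the factor CHOP.

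The sequences are shown because they tell which arms share a seed. RefSeq's table for GRCm38.p6 held 4 of the 6 members, namely both arms of miR-28a and of miR-708, as well as the relative miR-28b. It did not list miR-151-5p, miR-151-3p or miR-28c. Each sequence reads 5′ to 3′ with its seed in capitals.
miR-28a-5p: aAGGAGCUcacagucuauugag
miR-708-5p: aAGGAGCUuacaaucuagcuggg
miR-28a-3p: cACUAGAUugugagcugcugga
miR-708-3p: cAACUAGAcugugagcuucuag
miR-28b: aGGAGCUCacaaucuauuuag
The 5p arms of miR-28a and miR-708 began with the same 8 bases and so had the same seed, AGGAGCU, which no other of the 1679 mature names in the RefSeq table carried at bases 2 to 8. The letters AGGAGCU occurred anywhere in 9 of these names (0.536%). Of the 1915 names with read counts, RefSeq held 1623. The seeds of the other counted names were not checked. Aligned from the first base, the 5p arms were identical at 16 of 22 bases and differed by C9U, G13A, U18G, U19C, G20U and A21G, with positions counted from 1 at the 5′ end of miR-28a-5p and the base of miR-28a-5p given first. The seeds of the 3p arms were not the same. The 3p arms matched best, at 17 of 21 bases, with miR-708-3p starting 1 base earlier, which put ACUAGAU in the seed of miR-28a-3p and AACUAGA in that of miR-708-3p. miR-28b started 1 base later than miR-28a-5p and matched it at 19 of 21 bases, so its seed, GGAGCUC, was shifted too.

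In GRCm38, the mm10 assembly, the miR-28a hairpin lies on chromosome 16 from 24827855 to 24827940 on the plus strand, in intron 8 of 12 of Lpp, the gene of a LIM-domain protein of focal adhesions. The miR-151 hairpin lies on chromosome 15 from 73254815 to 73254882 on the minus strand, in intron 22 of 31 of Ptk2. The miR-708 hairpin lies on chromosome 7 from 96249424 to 96249532 on the plus strand, in the first of 32 introns of Tenm4, which encodes the membrane protein teneurin-4. Each hairpin is on the strand of its host and overlaps no exon of a GENCODE transcript of that gene. The intron numbers are those of the longest principal protein-coding transcript that spans the hairpin.

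With 1 entry kept per name, the libraries held 8697384 to 13946613 reads. The rarest member in any library, miR-708-5p in the induced library of trial 1, was still covered by 88 reads. Levels are given in CPM (counts scaled to library size, with TMM factors). Reads of different microRNAs are not equal to molecules, because adapter ligation favours some ends over others, so levels are compared between members only as reads. The microRNAs miR-223 and miR-142a, listed here as myeloid, summed to 72792 to 91694 CPM in the uninduced and 74775 to 92246 CPM in the induced libraries. Most of this was miR-142a-5p, with a mean of 61398 CPM uninduced and 63535 CPM induced, against 6513 and 5564 CPM for miR-223-3p. The sum alone does not identify the granulocyte-macrophage lineage named in the labels. The erythroid, neural, muscle, liver and embryonic stem markers summed to under 2 CPM in every library. The lymphoid marker miR-150 summed to 25.9 to 45.0 CPM uninduced and 32.3 to 38.8 CPM induced, with 0 of 2 names past the test. Epithelial markers summed to 33.7 to 41.8 CPM uninduced and 82.4 to 102 CPM induced, with 3 of 10 names past the test and 1 name at 0. Stromal markers summed to 231 to 271 CPM uninduced and 146 to 216 CPM induced, with 1 of 8 names past the test and 1 name at 0. The part of these markers in the results below was not tested.

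The members took different courses after induction. Of the 6, only miR-708-3p passed the quasi-likelihood test of edgeR, adjusted over all tested microRNAs by Benjamini-Hochberg at 0.05, and it fell. In all, 32 of 525 microRNAs passed (6.10%), made up of 3.43% with higher and 2.67% with lower levels after induction. Both arms of miR-708 were lower and miR-28a-5p was higher in every induced library than in every uninduced one. Groups that did not overlap in this way were found for 145 of the 525 microRNAs (27.6%), 84 of them higher (16.0%) and 61 lower in induced cells (11.6%). All members but miR-151-5p had a difference of the same sign in all 3 trials, as had 307 of the 525 microRNAs (58.5%). The CPM of the other members, miR-28a-3p and both arms of miR-151, overlapped between the groups. In cultured cells a lower level can come from fewer cells that make a microRNA or from less of it per cell, and these cannot be told apart here.

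miR-708-3p, the more abundant arm of the Tenm4 hairpin in these libraries, had 177, 294 and 143 CPM in uninduced trials 1, 2 and 3. In the induced libraries it had 20.6, 34.4 and 43.6 CPM. The lowest uninduced library was thus well above the highest induced one, and trial 2 held the highest uninduced value. The ratio of the group means was 6.23 in favour of uninduced cells, and miR-708-3p fell by 2.64 on the log2 scale (SE 0.33, n = 3 per group, edgeR adjusted p = 9.96e-04). Within trials the log2 changes were -3.10, -3.10 and -1.71, so the fall was smaller in trial 3. Leaving out any 1 of the 6 libraries kept this arm past the test, with edgeR adjusted p from 0.0013 to 0.027.

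Libraries with the same trial number were taken as pairs because their deviations from the group means correlated in these data (0.33, 0.45 and 0.53). A fit with the trial as a block left miR-708-3p past the test (edgeR adjusted p = 0.037). With both libraries of trial 1 or of trial 2 left out, the blocked fit no longer passed it, at edgeR adjusted p = 0.397 and 0.095. These fits have 2 trials each. Their log2 changes were -2.39 and -2.38.

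miR-708-5p, the arm that carries the seed AGGAGCU, had 53.2, 140 and 30.7 CPM in uninduced trials 1, 2 and 3 and 7.31, 15.9 and 13.4 CPM in induced ones. Its log2 change of -2.62 was close to that of the other arm, but its error was larger (SE 0.61, n = 3 per group), and it did not pass (edgeR adjusted p = 0.056, or 0.070 with the block). The spread lay mostly in the uninduced group, where the SD was 77.3% of the mean and trial 2 stood above the others. Without the uninduced library of trial 2 the log2 change was -1.77 and the arm passed (edgeR adjusted p = 0.016). It also passed DESeq2 (adjusted p = 0.0057) and limma-voom (adjusted p = 0.043), which passed 37 (7.05%) and 22 (4.19%) of the 525 microRNAs. Within trials the log2 changes were -2.86, -3.13 and -1.20, the smallest again in trial 3.

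miR-28a-5p, the more abundant arm of the Lpp hairpin and the partner of miR-708-5p by seed, had 179, 203 and 234 CPM in uninduced trials 1, 2 and 3. In the induced libraries it had 279, 278 and 289 CPM. The induced libraries lay close together, with an SD of 2.16% of the mean against 13.3% in the uninduced group. The ratio of the means was 1.37 and the log2 change 0.46 (SE 0.14, n = 3 per group), which did not pass (edgeR adjusted p = 0.084). With the trial as a block miR-28a-5p passed (log2 change 0.46, SE 0.09, edgeR adjusted p = 0.0041), in a fit that passed 114 of the 525 microRNAs (21.7%). That call was lost when the blocked fit left out trial 1 (log2 change 0.38, edgeR adjusted p = 0.062) or trial 3 (log2 change 0.53, edgeR adjusted p = 0.094), each a fit on 2 trials. The within-trial log2 changes were 0.64, 0.46 and 0.30.

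miR-28a-3p, the other arm of the same hairpin, had 89.6, 112 and 93.4 CPM uninduced and 110, 140 and 105 CPM induced in trials 1, 2 and 3. Each trial had the higher value in its induced library, by 0.29, 0.32 and 0.17 on the log2 scale. Because trial 2 was highest in both groups, the groups overlapped, and the log2 change of 0.26 (SE 0.16) did not pass without the block (edgeR adjusted p = 0.397) or with it (edgeR adjusted p = 0.051).

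The arms of miR-151 were by far the most read members. miR-151-3p, at rank 29 of the 525 by mean level, had 5639, 5130 and 6598 CPM in uninduced trials 1, 2 and 3 and 5724, 5936 and 7177 CPM in induced ones. Its log2 change was 0.12 (SE 0.13, edgeR adjusted p = 0.681). miR-151-5p, at rank 41, had 2625, 2119 and 3099 CPM uninduced and 2656, 2434 and 3089 CPM induced, with a log2 change of 0.06 (SE 0.16, edgeR adjusted p = 0.850). For both arms trial 3 was highest in both groups, and the trials differed from each other by more than the groups did. The sign of these small changes was not stable. Without the induced library of trial 3 the log2 change was -0.027 for miR-151-3p and -0.075 for miR-151-5p, and without the uninduced library of trial 2 it was -0.059 for miR-151-5p.

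**Figure D1:**
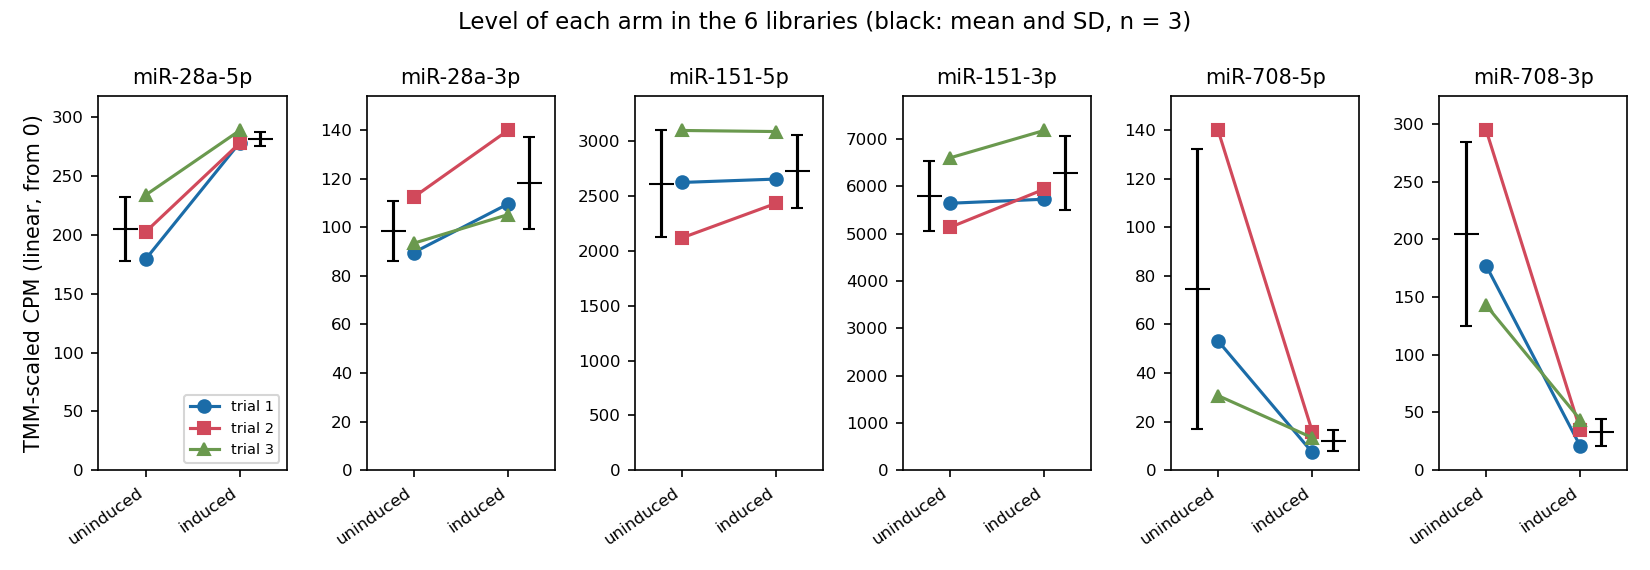
Each panel shows 1 family member in TMM-scaled CPM on a linear axis from 0, with a point for each library, lines joining the libraries of a trial, and black bars for the group mean and SD (n = 3). Both miR-708 arms drop in all 3 trials, from 30.7 to 140 CPM down to 7.31 to 15.9 CPM for the 5p arm, while miR-28a-5p ends at 278 to 289 CPM in the induced libraries and the lines of the miR-151 arms stay nearly level.

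The direction of the members was also compared hairpin against hairpin, as the log2 ratio of reads of the same arm within a library, which needs no scaling between libraries. Over the 3 pairs and 2 arms this made 6 comparisons, each tested with a two-sided exact permutation test of the 6 libraries. Its smallest possible p is 0.10, so that 0.05 cannot be reached. The permutation leaves the pairing by trial out, and sign flips within trials, which keep it, cannot give a p below 0.25. The ratio of miR-28a-5p to miR-708-5p had a mean log2 of 1.74 ± 1.20 in uninduced and 4.60 ± 0.58 in induced libraries (SD, n = 3 each), a shift of 2.86. The groups did not overlap, and the exact permutation p was 0.10, the smallest possible, or 0.15 after Benjamini-Hochberg adjustment over the 6. On the 3p side the ratio of miR-28a-3p to miR-708-3p changed sign, from a mean log2 of -0.99 ± 0.39 to 1.90 ± 0.58 (SD, n = 3 each, exact permutation p = 0.10, adjusted 0.15). Thus miR-708-3p had more reads than miR-28a-3p without doxycycline and fewer with it. The ratios of miR-151 to miR-708 shifted by 2.47 for the 5p and 2.75 for the 3p arms, again without overlap (exact permutation p = 0.10, adjusted 0.15 for each). Every ratio without overlap had an arm of miR-708 as its denominator. Those arms did not overlap between the groups on their own, so these ratios are not results separate from the fall of miR-708. How often ratios of other microRNAs do not overlap was not counted.

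miR-28a and miR-151 were not separated in this way. The 5p ratio of miR-28a to miR-151 moved by 0.39 on the log2 scale, with the groups overlapping (exact permutation p = 0.20, adjusted 0.24). The 3p ratio moved by 0.14 (exact permutation p = 0.70, adjusted 0.70). In all 3 trials the 5p ratio was higher in the induced library, by 0.62, 0.26 and 0.31, and so was the 3p ratio, by 0.27, 0.10 and 0.050.

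**Figure D2:**
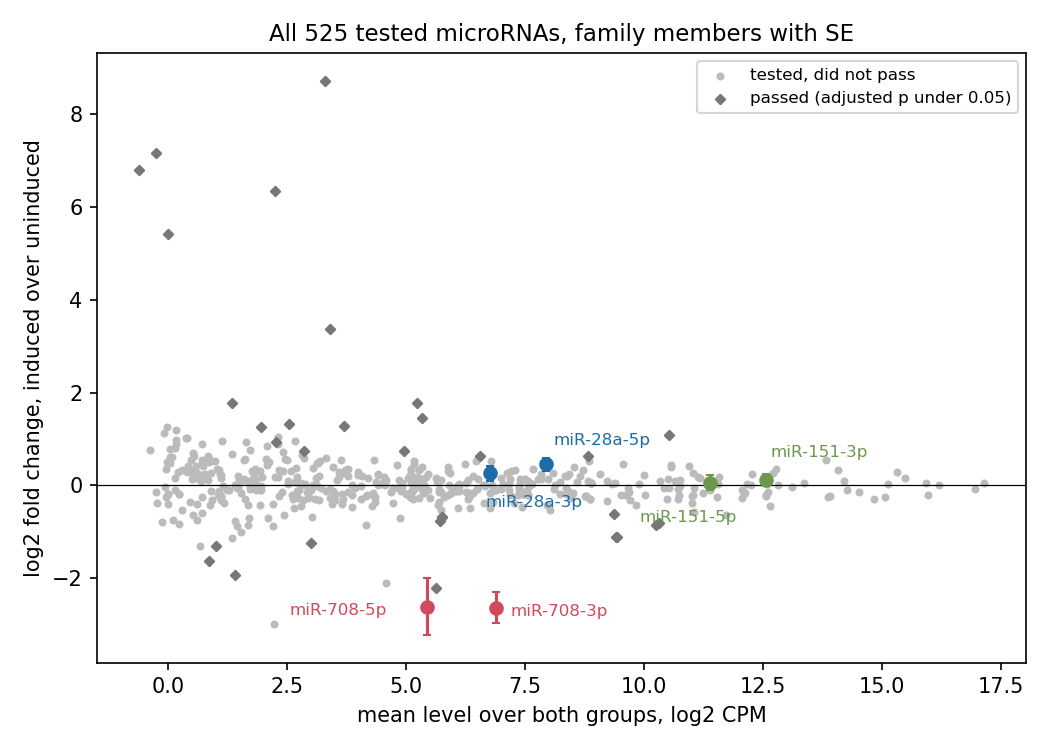
The log2 fold change of induced over uninduced cells is plotted against the mean level in log2 CPM for all 525 tested microRNAs, with diamonds for those that passed and coloured points with SE bars for the family members. The arms of miR-708 lie together at -2.62 and -2.64, miR-28a-5p at 0.46, and the arms of miR-151 near 0 at the abundant end of the axis.

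The pooled level of the shared seed was then followed, as the sum of miR-28a-5p and miR-708-5p. In trial 1 it went from 233 to 286 CPM, in trial 2 from 342 to 294 CPM and in trial 3 from 265 to 302 CPM. The mean was 280 CPM ± 56.5 before and 294 CPM ± 8.21 after induction (SD, n = 3 each), with a log2 ratio of 0.07, and the trials did not share a direction. Because the members were chosen with earlier results known, the sum was not tested. Its make-up differed more than its size. miR-708-5p gave 22.9, 40.8 and 11.6% of the pooled reads in uninduced trials 1, 2 and 3, and 2.56, 5.41 and 4.42% in induced ones. Within the trials miR-28a-5p gained 99.2, 75.5 and 55.0 CPM, and miR-708-5p changed by -45.9, -124 and -17.3 CPM. In trial 2, where miR-708-5p was highest, its loss was larger than the gain of miR-28a-5p, and in the other trials it was smaller. Without the uninduced library of trial 2 the log2 ratio of the pooled level was 0.24, and the remaining uninduced libraries, at 233 and 265 CPM, lay below all induced ones, at 286, 294 and 302 CPM.

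**Figure D3:**
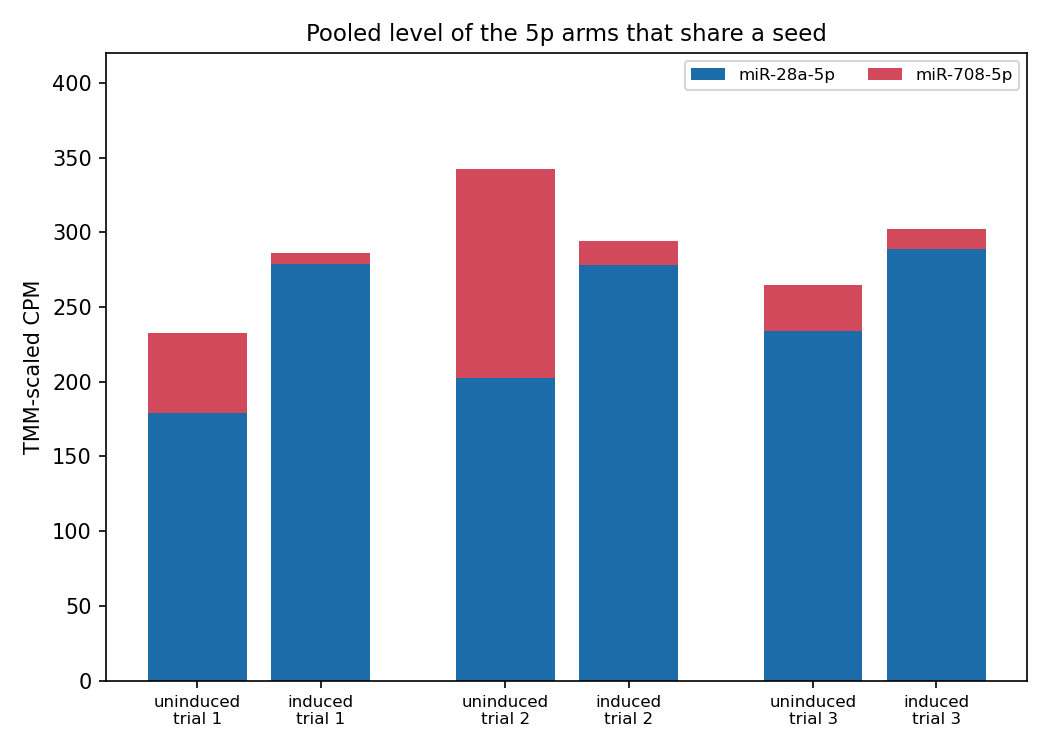
Bars give, for each library, the pooled TMM-scaled CPM of the 5p arms found with seed AGGAGCU. They are stacked as miR-28a-5p (blue) and miR-708-5p (red) and ordered by trial. The total lies between 233 and 342 CPM in uninduced and between 286 and 302 CPM in induced libraries, while the red part shrinks from 11.6 to 40.8% of the total to 2.56 to 5.41%.

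The 3p arms of miR-28a and miR-708, whose seeds are offset by 1 base, summed to 303 CPM ± 91.0 before and 151 CPM ± 22.1 after induction (SD, n = 3 each). Here miR-708 held the larger part before induction, and the sum was lower in the induced library of every trial, by log2 ratios of -1.03, -1.22 and -0.67. Over all 6 members, miR-151 supplied 93.3% ± 2.38 of the reads in uninduced and 95.3% ± 0.55 in induced libraries (SD, n = 3 each). miR-708 supplied 3.25% ± 1.94 and 0.47% ± 0.14. Summed over the 6 members, the level was 8987 CPM ± 1117 before and 9451 CPM ± 1097 after induction (SD, n = 3 each), so it followed miR-151.

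Arm use was compared for all 150 hairpins whose arms both passed the filter, with limma on the log2 ratio of 5p to 3p reads. The hairpins of the family differed in which arm was read more. miR-28a gave mostly 5p reads, 67.5% ± 3.64 of the hairpin's reads uninduced and 70.5% ± 3.54 induced (SD, n = 3 each). miR-151 gave 31.0% ± 1.52 and 30.3% ± 1.32 from its 5p arm, and miR-708 24.3% ± 7.34 and 27.1% ± 4.16 (SD, n = 3 each). Thus the arm that carries the shared seed was the major one of miR-28a and the minor one of miR-708.

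None of the 3 ratios changed past the test. The log2 changes were 0.21 (SE 0.20) for miR-28a, -0.05 (SE 0.15) for miR-151 and 0.24 (SE 0.27) for miR-708, each with a limma adjusted p of 0.984. Over all 150 hairpins 0 passed (0%), and 5 had an unadjusted limma p under 0.05 (3.33%). With the trial as a block 13 of the 150 passed (8.67%), none of them in the family, with limma adjusted p of 0.211 for miR-28a, 0.632 for miR-151 and 0.274 for miR-708. The median change over the 150 hairpins was -0.02, and the median size of a change was 0.15. Both arms of miR-708 were lower, with log2 changes of -2.62 for the 5p and -2.64 for the 3p arm. No shift from one arm to the other was detectable with 3 libraries a group. Within trials the log2 ratio of miR-708 changed by -0.04 to 0.51, so an equal fall of its arms is not shown.

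The libraries of a trial resembled each other in arm use. In both groups the 5p share of miR-708 was highest in trial 2, at 32.2% uninduced and 31.6% induced, and lowest in trial 3, at 17.7 and 23.5%. For miR-28a the order was the reverse, with the 5p share lowest in trial 2, at 64.3 and 66.6%, and highest in trial 3, at 71.5 and 73.3%. For miR-151 trial 2 was lowest as well, at 29.2 and 29.1%. This order over trials is a description and was not tested.

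**Figure D4:**
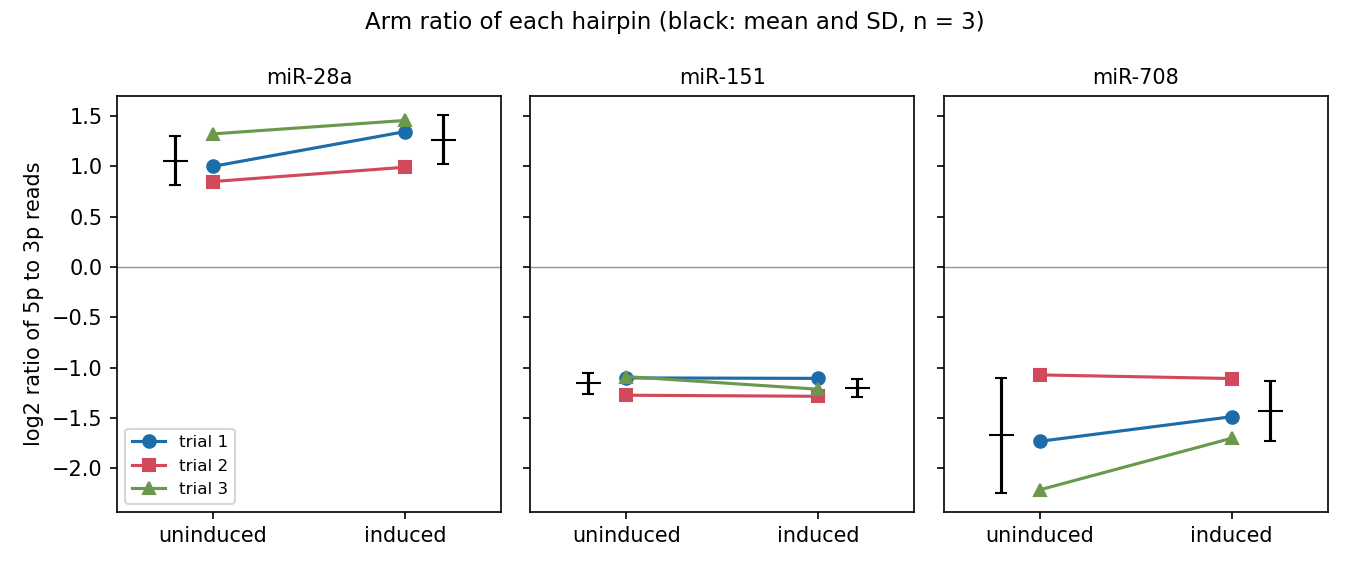
The log2 ratio of 5p to 3p reads is shown for each hairpin and library, with lines joining the libraries of a trial and black bars for the group mean and SD (n = 3). miR-28a lies above 0 in all 6 libraries and miR-151 and miR-708 below 0, and trial 2 has the highest ratio of miR-708 and the lowest ratio of miR-28a in both groups.

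The relatives miR-28b and miR-28c were rare. miR-28b had 0, 0 and 2 reads in uninduced and 3, 1 and 4 reads in induced libraries and was too rare to test. miR-28c, from a hairpin on chromosome 15 (53614205 to 53614279) in an intron of Samd12, had 4.38, 4.0 and 3.66 CPM in uninduced trials 1, 2 and 3 and 7.56, 6.39 and 5.88 CPM in induced ones. Like miR-28a-5p it was higher in every induced library, and it passed only with the block (log2 change 0.72, SE 0.21, edgeR adjusted p = 0.071 without and 0.014 with the block). It had 1.99 ± 0.44 reads per 100 reads of miR-28a-5p in uninduced and 2.35 ± 0.34 in induced libraries (SD, n = 3 each). How reads matching several microRNAs were counted is not given in the sources used here, so reads of miR-28a-5p counted as miR-28c or miR-28b cannot be told apart from their own.

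The microRNAs whose log2 CPM over the 6 libraries followed the more abundant arm of each hairpin most closely were sought among 321 microRNAs of other hairpins with at least 10 CPM on average. For miR-708-3p these were let-7a-5p (Pearson r = 0.98), a member of the let-7 family, miR-132-3p (r = 0.96) and miR-669l-5p (r = 0.95). Their log2 changes were -0.44 (SE 0.11), -0.78 (SE 0.16) and -0.17 (SE 0.13), all much smaller than that of miR-708-3p. The other arm, miR-708-5p, had r = 0.96. For miR-28a-5p they were miR-322-5p (r = 0.96), miR-330-5p and miR-141-3p (r = 0.95 each), with log2 changes of 0.45 (SE 0.12), 0.34 (SE 0.12) and 1.45 (SE 0.17). Its own partner arm, miR-28a-3p, had r = 0.56. For miR-151-3p they were miR-1947-5p (r = 0.96), miR-1948-3p and miR-3082-3p (r = 0.95 each), none with a log2 change above 0.19, and miR-151-5p had r = 0.91. These correlations rest on 6 libraries that share trials, group and scaling, and are given as descriptions.

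Other microRNAs from introns of protein-coding genes were taken from a list of 33 names, some of which also have hairpins elsewhere (miR-16, for example). Of its 61 tested members 5 rose, 0 fell and 56 did not pass (8.20% called, against 6.10% of all tested), with a median log2 change of 0.05, against 0.02 over all 525. The 5 were miR-342-3p, miR-342-5p, miR-511-3p and miR-511-5p, with 0 to 3 reads in all uninduced libraries together, and miR-218-5p, with 0 reads there. The filter keeps a microRNA this rare only if it is high in induced libraries, so their direction was fixed by it. They lie far above the list's median and can only raise it, and a median without them is not given here. Before adjustment, 109 of all 525 microRNAs (20.8%) had an edgeR p under 0.05. With the block 10 of the 61 were higher and 2 lower, against 114 of all 525 called in that fit (21.7%). The most abundant members of the list did not pass, among them miR-191-5p (log2 change -0.07, SE 0.14), miR-16-5p (0.17, SE 0.10), miR-26a-5p (0.02, SE 0.10) and miR-30e-5p (0.09, SE 0.10). No fall was called on this list without the block. With it the 2 lower members were miR-425-5p (log2 change -0.26) and miR-26a-1-3p (-0.44), against -2.62 for miR-708-3p in that fit. The difference between miR-708 and the list was not tested.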

How the data were processed

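The data are small RNA libraries of 3 uninduced and 3 induced samples, made with the miRNeasy and TruSeq small RNA kits and sequenced on a HiSeq, per the labels' protocols. The submitters' processing notes list Trim Galore 0.4.0, DESeq2 as version 2.1.8.0 and the build mm10; the design text of the series names miRBase. The counter, the miRBase release and how reads with several matches were handled: not given in the sources used here. The authors deposited raw read counts for 2061 entries, and CPM values that equal the counts over the sum of all entries, within 0.005. Each of the 1915 names was represented by its entry with the highest total, so that 17.5% of all entered reads were not used.

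The test on the counts was that of edgeR 4.0.16 under R 4.3.3 (TMM, filterByExpr, robust glmQLFit and glmQLFTest, two-sided, Benjamini-Hochberg at 0.05), with the group alone in the model. The SE of a log2 change was taken from its F value. Arm ratios were tested with limma 3.58.1 on log2 of (5p + 0.5) over (3p + 0.5), with a trend on the rarer arm. DESeq2 1.42.0 and limma-voom were alternatives. The scripts were tested on simulated data. Deviations from the group means of libraries of the same trial correlated by 0.33, 0.45 and 0.53, every pair over 0.1. The trials were therefore taken as pairs in the fits with the block, while the main tests left the pairing out. No libraries of a group were alike within sampling noise (chi-square over its degrees of freedom 115 or more).

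The members, lists, tests and the rule for named microRNAs were chosen with earlier results of these data known. The rule names the 6 members, miR-28b and miR-28c, microRNAs with the same seed, the 3 microRNAs most like the major arm of each hairpin, and the 4 most abundant of the intronic list. The called members of that list were named after their values were seen. Positions and sequences are from RefSeq GRCm38.p6, introns from GENCODE M21 on the same assembly as mm10.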

Additional observations from a re-analysis of the deposited data

How the results depend on the processing

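The count of 32 called microRNAs went to 114 with the replicate block, 74 with DESeq2 and the block, 18 with a minimum of 10 CPM on average, 48 without a filter, and 12 to 41 when 1 library was left out. The blocked count was 66, 60 and 12 without trials 1, 2 and 3, a choice added, like the blocked DESeq2 fit, after the data were seen. DESeq2 size factors, library totals and the other entry rules left 22 to 29 called. The miR-708-3p change kept its sign in all 19 alternatives and lost its call in the blocked fits without trial 1 (-2.39) and without trial 2 (-2.38). The miR-708-5p change kept its sign in all 19 and passed in 7: with 10 CPM (-2.60), DESeq2 (-2.63), DESeq2 with the block (-2.43), limma-voom (-2.40), the blocked fit without trial 3 (-3.03), and without uninduced replicate 2 (-1.77) or uninduced replicate 3 (-2.99). The miR-28a-5p change ranged from 0.35 to 0.56 and passed only with the block (0.46), the block in DESeq2 (0.45) and the block without trial 2 (0.46). Leaving out 1 library gave ranges of -0.027 to 0.22 for miR-151-3p, -0.075 to 0.20 for miR-151-5p, -2.99 to -1.77 for miR-708-5p, -0.030 to 0.54 for the arm ratio of miR-708 and -0.023 to 0.32 for the ratio of miR-28a-3p to miR-151-3p. Changes near 0 reversed for miR-151-3p without induced replicate 3 (-0.027), miR-151-5p without induced replicate 3 (-0.075) and without uninduced replicate 2 (-0.059), the arm ratio of miR-708 without uninduced replicate 3 (-0.030) and the ratio of miR-28a-3p to miR-151-3p without induced replicate 2 (-0.023). The 5 called intronic microRNAs became 12 with the block, 8 with DESeq2 and the block, 0 with a minimum of 10 CPM and 1 in the blocked fit without trial 3. The 5 had mean levels of 0.66 to 9.73 CPM, under the minimum of 10 CPM, so they were left out of that fit and not retested. The cause of the other shifts was not tested. The log2 ratio of the pooled level, 0.07 with all libraries, ranged from -0.05 to 0.24 over its 9 alternatives. In 1 of these the pool also held miR-28b, miR-28c and miR-151-5p (0.06), and miR-151-5p made up 89.9% of it on average in uninduced libraries. The ratio was highest without uninduced replicate 2, where the groups no longer overlapped. The arm ratios passed in none of their 11. Between 0 and 13 of all hairpins did. With 3 libraries a group, changes like those of miR-151 cannot be told from no change.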
